A study of Homo sapiens with 12 samples.

Results

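Translation ends when a stop codon enters the ribosome, and 6 genes of that step and of the rescue of stalled ribosomes are described here: GSPT1, GSPT2, ETF1, HBS1L, PELO and ABCE1. They were chosen by symbol as factors of these steps, by a rule that uses no measured value, though with earlier results of these data known. All 6 were present among the 30017 gene symbols measured. RNA was sequenced in 12 libraries of THP-1, an established human monocytic leukaemia line, in 4 groups of 3 libraries. The groups were IRAK4 knockout cells with 50 nM CC-885, IRAK4 knockout cells with DMSO, wild-type cells with 50 nM CC-885 and wild-type cells with DMSO, each exposed for 12 h. All cells had been electroporated with Cas9, with a guide against IRAK4 for the knockout and without one for wild type, and both genotypes were expanded from single cells. Neither the number of clones per genotype nor whether the 3 libraries of a group are separate cultures is given in the labels. A difference between genotypes therefore cannot be told apart from one between clones, and the p-values cover the spread among the libraries at hand, which may be technical.

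ETF1 encodes eRF1, which reads all stop codons and triggers release of the finished peptide. GSPT1 and GSPT2 encode the eRF3a and eRF3b GTPases, which deliver eRF1 to the ribosome. PELO and HBS1L are relatives of eRF1 and eRF3 that enter ribosomes stalled without a stop codon, and ABCE1 is the ATPase that splits the ribosome into subunits after either event. CC-885 is a glue-like small molecule that attaches to the ubiquitin ligase subunit cereblon and makes it mark the GSPT1 protein for destruction. All values below are of transcripts, and no protein measurement was analysed here.

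Levels are CPM, counts scaled to a common library size, after TMM scaling, given as mean ± SD of 3 libraries unless each library is listed. Differences between groups are given on the log2 scale ± SE from edgeR's quasi-likelihood test, fitted to all 16010 genes that passed a filter on low counts, with Benjamini-Hochberg adjustment over those genes and a call at an adjusted p under 0.05. All 6 members passed the filter. The scaling is relative to the bulk of genes, and in these bulk samples fewer cells making a transcript and less RNA per cell cannot be told apart. Totals ran from 46903984 to 56675539 counts per library. IRAK4, the edited kinase, read 31.7, 30.8 and 29.6 CPM in knockout with CC-885 and 7.28, 8.72 and 8.78 CPM in knockout with DMSO, against 72.8 ± 9.53 CPM in wild type with CC-885 and 52.2 ± 1.57 CPM in wild type with DMSO. Wild-type CC-885 replicate 3 stood apart from the other 2 libraries of its group, its counts differing from theirs with a chi-square of 81.5 and 66.6 per degree of freedom, where the other pair gave 5.33. Of 9 THP-1 markers, 7 exceeded 10 CPM in every group, while MPO and CD14 lay below that in every group. The 9 summed to 1110 to 1140 CPM in knockout with CC-885, against 2360 to 3300 in knockout with DMSO, and to 1250 to 1450 in wild type with CC-885, against 1920 to 1980 in wild type with DMSO. Defining markers of T cells, B cells and epithelium (CD3E, MS4A1 and KRT5) were at 0 in every group. Summed T and NK cell markers, mostly NKG7, ranged from 4.86 to 6.01 CPM in knockout with CC-885, from 16.4 to 19.8 in knockout with DMSO, from 3.32 to 4.98 in wild type with CC-885 and from 7.05 to 11.1 in wild type with DMSO. B cell markers summed to at most 1.65 CPM in any library. The epithelial, stromal and endothelial list summed to 93.9 to 101 CPM in knockout with CC-885, 395 to 445 in knockout with DMSO, 107 to 117 in wild type with CC-885 and 263 to 304 in wild type with DMSO, nearly all of it PECAM1, which monocytes also express. The part of these markers in the results below was not tested.

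CC-885 was accompanied by higher transcript levels of the 3 release factors, with ETF1 the farthest, and by lower levels of PELO and ABCE1. HBS1L did not pass the test in either genotype. In knockout cells 3 of 6 members were higher (38.9% of all genes were) and 2 were lower (40.0% of all genes). In wild-type cells 3 of 6 were again higher (35.7% of all genes) and 2 lower (36.6% of all genes). With 5 of 6 called in each genotype, the members' share of calls was close to that of the whole table, 78.9% in knockout and 72.3% in wild type. Their median absolute change was 0.83 in knockout and 0.86 in wild type, against 0.84 and 0.637 over all genes.

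ETF1 lies on chromosome 5 (chr5:138506095-138543300, minus strand, GRCh38). It read 707, 700 and 700 CPM in knockout with CC-885, against 183, 209 and 212 CPM in knockout with DMSO. In wild type it read 535, 549 and 590 CPM with CC-885, against 281, 288 and 271 CPM with DMSO. All treated libraries lay above all DMSO libraries of their genotype. The change was 1.80 ± 0.06 in knockout (3.49-fold, edgeR adjusted p = 3.4e-13) and 1.00 ± 0.06 in wild type (1.99-fold, adjusted p = 6.4e-10). In knockout 9.09% of all genes had a higher log2 fold change than ETF1, and in wild type 17.0% did. Of its 100-base windows, 30 of 3775 also occurred in the pseudogene ETF1P2, so reads from those could be assigned to either.

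The start region of ETF1 carried the CCAAT box, a common promoter element, more than once. A RefSeq table (GRCh38.p14) supplied windows from 250 bases before to 50 bases after annotated starts, and all 6 members were in it, with 8 windows between them among 35116. The letters CCAAT, searched on both strands, occurred in 34.6% of all windows. ETF1's own copies are shown because it had the largest rise of the 6 members in each genotype. The box is in capitals and each line is read 5′ to 3′ on the gene's strand. The last line is from a further start window of the gene and holds the box on the opposite strand, as ATTGG.
ETF1 chr5:138543358-138543387 (minus strand): acccagctgcagCCAATcggcgggctcatt
ETF1 chr5:138543320-138543349 (minus strand): cggggcagagagCCAATgagaagtcgcggc
ETF1 chr5:138541923-138541952 (minus strand): gtaggtgtgtccATTGGggggagagtaggc
A match is a run of letters only, and no binding was measured.

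GSPT1 (chr16:11868128-11916082, minus strand) encodes the eRF3 that CC-885 is known to target. It read 295, 300 and 299 CPM in knockout with CC-885, against 170, 190 and 181 CPM in knockout with DMSO. In wild type it read 253, 260 and 248 CPM with CC-885, against 214, 231 and 225 CPM with DMSO. Groups did not overlap in either genotype, and the gap was wide in knockout and narrow in wild type. The change was 0.72 ± 0.05 in knockout (1.65-fold, edgeR adjusted p = 3.4e-09) and 0.18 ± 0.05 in wild type (1.14-fold, adjusted p = 0.00636). The wild-type call was lost with upper-quartile factors (0.11, adjusted p = 0.0764) and with library size alone (0.13, adjusted p = 0.0627).

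GSPT2 (chrX:51743431-51746232, plus strand) is an intronless copy of GSPT1, a retrogene, and encodes a second eRF3. It read 16.1, 15.3 and 15.9 CPM in knockout with CC-885, against 9.01, 10.1 and 9.63 CPM in knockout with DMSO. In wild type it read 12.8, 11.5 and 12.6 CPM with CC-885, against 6.65, 6.93 and 6.49 CPM with DMSO. Treated libraries were all above the untreated ones. The change was 0.72 ± 0.08 in knockout (1.65-fold, edgeR adjusted p = 5.7e-07) and 0.88 ± 0.08 in wild type (1.83-fold, adjusted p = 1.0e-07).

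Sequence around the starts of both genes is shown because the pair is similar in sequence. The longest run that their start windows share is 23 bases. In GSPT2 it ends at 51743420, before the annotated start of the gene at 51743431, so it does not bear on telling their reads apart. It is shown in capitals, each line 5′ to 3′ on the gene's strand (GRCh38.p14).
GSPT1 chr16:11915942-11915971 (minus strand): ggtGGGAGGAGATCCGCTCACACACAcgag
GSPT2 chrX:51743395-51743424 (plus strand): tggGGGAGGAGATCCGCTCACACACAagag
Over 2522 aligned columns the longest coding transcripts were 84.3% identical. None of the 7006 100-base windows of GSPT1 and none of the 2703 of GSPT2 occurred in a transcript of another gene, so reads of the labelled length of 100 bases that matched in full would separate the pair.

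**Figure D1:**
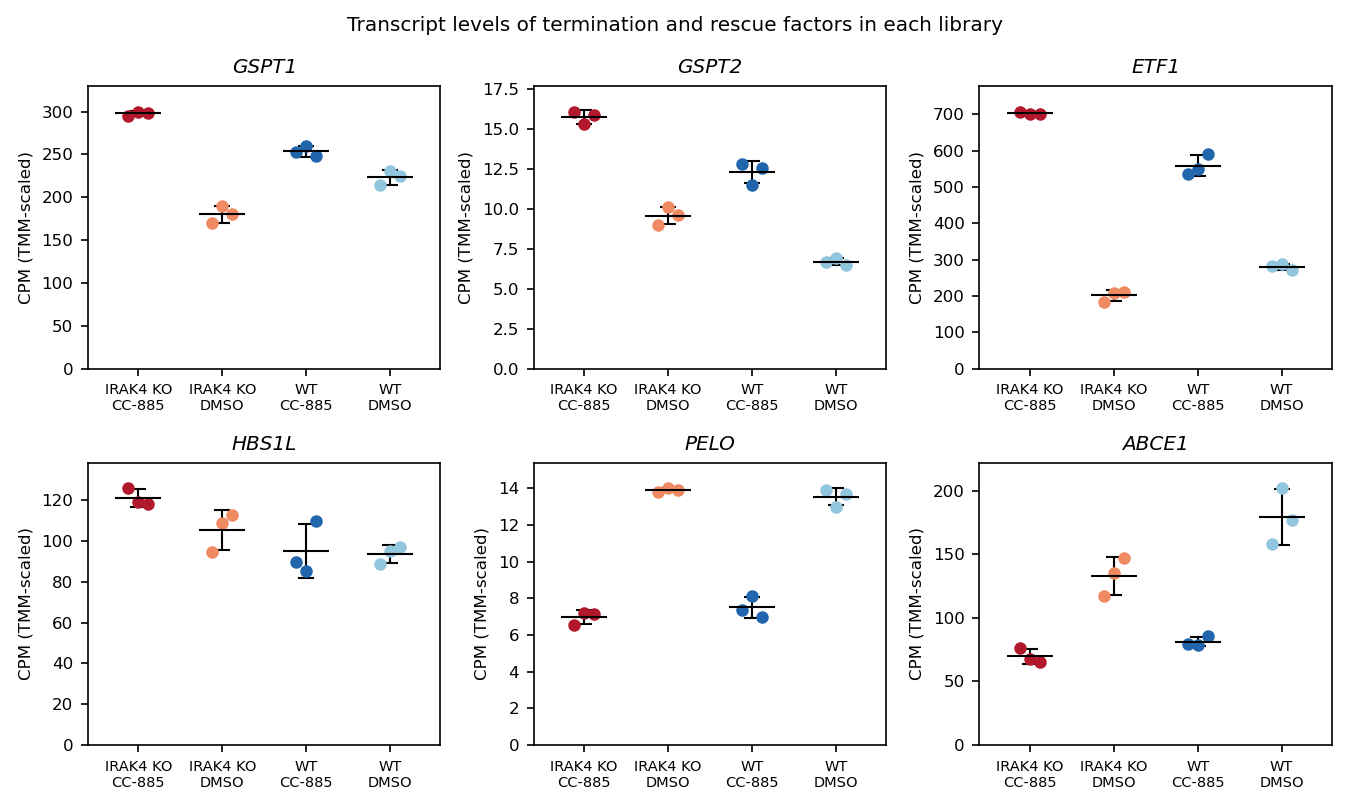
Level of each member in each library (points, CPM after TMM scaling, linear axes from 0) with the mean of 3 libraries (line), in knockout with CC-885, knockout with DMSO, wild type with CC-885 and wild type with DMSO. ETF1 lies between 535 and 707 CPM in the 6 treated libraries and between 183 and 288 CPM in the 6 DMSO libraries, while PELO and ABCE1 lie lower in the treated libraries of both genotypes.

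The rescue pair did not move together. PELO (chr5:52787940-52804046, plus strand), which recognises the empty decoding site of a stalled ribosome, read 6.55, 7.22 and 7.16 CPM in knockout with CC-885, against 13.8, 14.0 and 13.9 CPM in knockout with DMSO. In wild type it read 7.36, 8.15 and 6.98 CPM with CC-885, against 13.9, 13.0 and 13.7 CPM with DMSO. The treated and untreated ranges were far apart in both genotypes, and the 2 DMSO groups overlapped each other. PELO fell by 1.00 ± 0.09 on the log2 scale in knockout (0.502-fold, edgeR adjusted p = 1.9e-08) and by 0.85 ± 0.09 in wild type (0.553-fold, adjusted p = 1.8e-07). PELO lies inside ITGA1, an integrin gene on the same strand, with which it shares 475 exonic bases (10.9% of its own). Of its 4250 100-base windows, 378 occurred in ITGA1 transcripts, so part of its count could not be assigned to either gene alone.

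HBS1L (chr6:134960378-135103056, minus strand), the GTPase that carries PELO, read 126, 119 and 118 CPM in knockout with CC-885, against 94.5, 109 and 113 CPM in knockout with DMSO. In wild type it read 89.9, 85.6 and 110 CPM with CC-885, against 88.8, 95.4 and 97.1 CPM with DMSO. In knockout the treated libraries were the higher ones by a small margin, and in wild type the groups overlapped. The difference was 0.20 ± 0.09 in knockout (95% interval 0.01 to 0.38, edgeR adjusted p = 0.0509) and 0.02 ± 0.09 in wild type (-0.16 to 0.21, adjusted p = 0.823). The knockout value lay at the threshold and passed under 9 of 23 alternatives, with adjusted p between 0.0012 and 0.57 over all 23. Wild-type CC-885 replicate 3 held the highest of the 6 wild-type values, and without it the wild-type difference was -0.10 (adjusted p = 0.214) and the knockout difference was 0.20 (adjusted p = 0.00613).

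ABCE1 (chr4:145097932-145129179, plus strand), the recycling ATPase, read 76.5, 67.6 and 65.5 CPM in knockout with CC-885, against 117, 135 and 147 CPM in knockout with DMSO. In wild type it read 79.6, 78.7 and 85.8 CPM with CC-885, against 158, 202 and 177 CPM with DMSO. Every treated library lay below every DMSO library. ABCE1 fell by 0.93 ± 0.10 on the log2 scale in knockout (0.524-fold, edgeR adjusted p = 2.3e-07) and by 1.14 ± 0.10 in wild type (0.455-fold, adjusted p = 3.0e-08). In wild type 10.1% of all genes had a lower log2 fold change. Its exons overlap those of opposite-strand genes (ANAPC10 by 469 bases, OTUD4 by 276), and the strand setting of the counting is not given in the sources used here. In addition 441 of its 3822 100-base windows occurred in transcripts of 6 other genes.

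The start window of ABCE1 held the full cyclic AMP response element TGACGTCA, the letters bound by the CREB and ATF families. It is shown because 1.85% of the 35116 windows held this run on either strand. The window of no other member did, and no member's window held TGATGNAA (3.62% of all windows) or CACGTG (7.26%). The element is in capitals, 5′ to 3′ on the gene's strand (GRCh38.p14).
ABCE1 chr4:145098202-145098231 (plus strand): tcgcagctcaaTGACGTCAtatctccctac
No binding was measured, and the absence of a run says only that these letters are not in that window.

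Without wild-type CC-885 replicate 3 the wild-type changes were 0.95 for ETF1, 0.20 for GSPT1, 0.86 for GSPT2, -0.81 for PELO and -1.18 for ABCE1. Library names carry a prefix, 51 or 52, that splits the samples, which the labels do not call a batch. All knockout CC-885 libraries carry 51. Wild-type CC-885 replicate 3, which stood apart above, and knockout DMSO replicate 3 are alone in their groups with 52. Wild-type DMSO replicate 1 is alone in its group with 51. In knockout with DMSO the chi-square per degree of freedom was 22.4 and 14.9 across prefixes and 13.7 within. In wild type with DMSO it was 15.5 and 16.3 across and 6.49 within. In knockout with CC-885, all within prefix 51, it was 7.47, 13.4 and 4.29. A part of the prefix in this was not tested. Within the libraries of the prefix 51 alone the knockout changes were 1.83 for ETF1, 0.72 for GSPT1, 0.72 for GSPT2 and -0.86 for ABCE1, and PELO fell by 1.00. The wild-type changes there were 0.94 for ETF1, 0.25 for GSPT1, 0.85 for GSPT2, -0.86 for PELO and -1.01 for ABCE1, but they set 2 treated libraries against 1 DMSO library, the lone one of its group with that prefix, which is assumed to vary like the other groups.

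**Figure D2:**
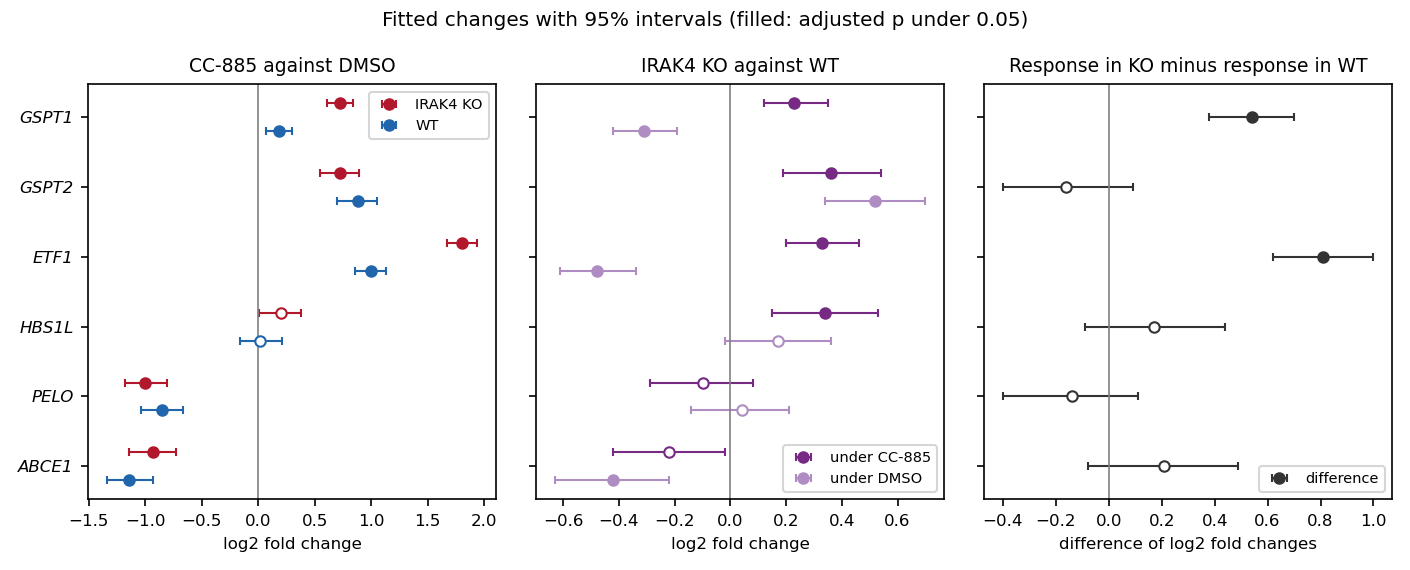
Log2 fold change of each member in the 5 comparisons (points, edgeR) with 95% confidence intervals (lines), filled where the adjusted p is under 0.05, and a vertical line at 0. ETF1 lies farthest to the right in knockout at 1.80, GSPT1 and ETF1 have interactions of 0.54 and 0.81 with intervals above 0, and the HBS1L intervals of the wild-type response and of the interaction include 0.

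GSPT1 and ETF1, the partners of normal termination, responded more in knockout than in wild type. The interaction, the knockout response minus the wild-type response, was 0.54 ± 0.08 for GSPT1 (95% interval 0.38 to 0.70, edgeR adjusted p = 7.6e-05) and 0.81 ± 0.09 for ETF1 (0.62 to 1.00, adjusted p = 8.4e-06). Those were 2 of 6 members with a higher response in knockout (17.9% of all genes), and 0 of 6 had a lower one (16.8% of all genes), where 34.7% of all genes passed in either direction. Among all genes 5.24% had a higher interaction value than ETF1. The other 4 did not pass, with GSPT2 at -0.16 (-0.40 to 0.09), HBS1L at 0.17 (-0.09 to 0.44), PELO at -0.14 (-0.40 to 0.11) and ABCE1 at 0.21 (-0.08 to 0.49); each parenthesis is the 95% interval of the difference. Without wild-type CC-885 replicate 3 the HBS1L interaction was 0.29 (adjusted p = 0.0148).

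The larger response of this pair went with a lower starting level. ABCE1 shared the lower level (-0.42 ± 0.09 under DMSO) without a called interaction (0.21 ± 0.13). Under DMSO, GSPT1 averaged 180 ± 9.65 CPM in knockout and 223 ± 8.58 CPM in wild type, a difference of -0.31 ± 0.05 (edgeR adjusted p = 0.000219). ETF1 averaged 201 ± 15.8 CPM in knockout and 280 ± 8.41 CPM in wild type (-0.48 ± 0.06, adjusted p = 1.3e-05). With CC-885 the order was turned round, to 298 ± 2.29 CPM in knockout and 253 ± 6.02 CPM in wild type for GSPT1 (0.23 ± 0.05, adjusted p = 0.00162). For ETF1 it was 702 ± 4.14 CPM in knockout and 558 ± 28.6 CPM in wild type (0.33 ± 0.06, adjusted p = 0.000289). These comparisons and the interaction rest on the same libraries and are not separate evidence.

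Among the other members GSPT2 was higher in knockout under both treatments. It averaged 15.8 ± 0.409 CPM in knockout and 12.3 ± 0.702 CPM in wild type with CC-885 (0.36 ± 0.08, edgeR adjusted p = 0.00114). With DMSO it averaged 9.59 ± 0.569 CPM in knockout and 6.69 ± 0.219 CPM in wild type (0.52 ± 0.08, adjusted p = 0.000100). ABCE1 was lower in knockout with DMSO, at 133 ± 15.0 CPM in knockout and 179 ± 21.7 CPM in wild type (-0.42 ± 0.09, adjusted p = 0.00162). With CC-885 the ABCE1 difference of -0.22 ± 0.10 did not pass (95% interval -0.42 to -0.02, adjusted p = 0.0601).

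HBS1L was higher in knockout with CC-885, at 121 ± 4.20 CPM in knockout and 95.3 ± 13.3 CPM in wild type (0.34 ± 0.09, edgeR adjusted p = 0.00356, and 0.46 without wild-type CC-885 replicate 3). With DMSO its difference of 0.17 ± 0.09 did not pass (adjusted p = 0.127). It passed with upper-quartile factors (0.29, adjusted p = 0.00604) and with library size alone (0.22, adjusted p = 0.0354). PELO did not pass between genotypes, at -0.10 ± 0.09 with CC-885 (95% interval -0.29 to 0.08) and 0.04 ± 0.08 with DMSO (-0.14 to 0.21). In all, 4 of 6 members were higher in knockout with CC-885 (27.8% of all genes) and 0 of 6 were lower (30.8% of all genes), with 58.6% of all genes called in either direction. With DMSO 1 of 6 was higher (21.3% of all genes) and 3 of 6 were lower (28.4% of all genes), with 49.7% called in either direction.

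The balance between partners was read from ratios of raw counts within each library, which do not depend on scaling between libraries but mix genes of different length. For each ratio the treatment labels were permuted within genotype, or the genotype labels within treatment, over all 400 arrangements. The smallest two-sided p these exact permutation tests can give is 0.005, and the 10 tests of 5 ratios, several of which share ETF1, were adjusted together. A single contrast of 3 against 3 libraries cannot go below 0.10, so contrasts within a genotype or treatment are given as values.

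GSPT1 to ETF1, the ratio of the partners of the release complex, was 0.424 ± 0.00568 in knockout with CC-885, 0.898 ± 0.0383 in knockout with DMSO, 0.455 ± 0.0308 in wild type with CC-885 and 0.797 ± 0.0343 in wild type with DMSO. All 6 treated libraries lay below all 6 DMSO libraries. The difference between treatments was -0.95 on the log2 scale (0.519-fold, exact stratified permutation test, adjusted p = 0.0100). Between genotypes it was 0.04 (adjusted p = 0.572), made of -0.10 with CC-885 and 0.17 with DMSO.

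GSPT2 to GSPT1, the share of the retrogene relative to its parent, was 0.0531 ± 0.00173 in knockout with CC-885, 0.0532 ± 0.000307 in knockout with DMSO, 0.0485 ± 0.00373 in wild type with CC-885 and 0.0300 ± 0.00112 in wild type with DMSO. The wild-type DMSO libraries stood alone at the low end. The genotype difference was 0.48 (1.39-fold, exact stratified permutation test, adjusted p = 0.0100), made of 0.13 with CC-885 and 0.83 with DMSO. The treatment difference of 0.34 did not pass (adjusted p = 0.0750), with 0.00 in knockout and 0.69 in wild type.

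PELO to HBS1L was 0.0579 ± 0.00497 in knockout with CC-885, 0.133 ± 0.0123 in knockout with DMSO, 0.0801 ± 0.0161 in wild type with CC-885 and 0.145 ± 0.0109 in wild type with DMSO. The treatment difference was -1.03 (0.488-fold, exact stratified permutation test, adjusted p = 0.0100). The genotype difference of -0.29 passed narrowly (adjusted p = 0.0417) and was lost on leaving out any of 9 libraries, with adjusted p up to 0.106. It was made of -0.45 with CC-885 and -0.13 with DMSO.

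The rescue and recycling factors fell farthest against eRF1. PELO and ABCE1 fell while ETF1 rose, so their ratios restate those changes in the same libraries and are not separate evidence. PELO to ETF1 was 0.00994 ± 0.000589 in knockout with CC-885, 0.0694 ± 0.00545 in knockout with DMSO, 0.0135 ± 0.00152 in wild type with CC-885 and 0.0484 ± 0.00299 in wild type with DMSO. That is a treatment difference of -2.33 (0.199-fold, exact stratified permutation test, adjusted p = 0.0100). ABCE1 to ETF1 was 0.0995 ± 0.00775 in knockout with CC-885, 0.662 ± 0.0294 in knockout with DMSO, 0.146 ± 0.00274 in wild type with CC-885 and 0.639 ± 0.0691 in wild type with DMSO, a treatment difference of -2.43 (0.185-fold, adjusted p = 0.0100). The genotype difference was 0.04 for PELO to ETF1 (adjusted p = 0.790), made of -0.43 with CC-885 and 0.52 with DMSO. For ABCE1 to ETF1 it was -0.25 (adjusted p = 0.0750), made of -0.55 with CC-885 and 0.06 with DMSO.

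**Figure D3:**
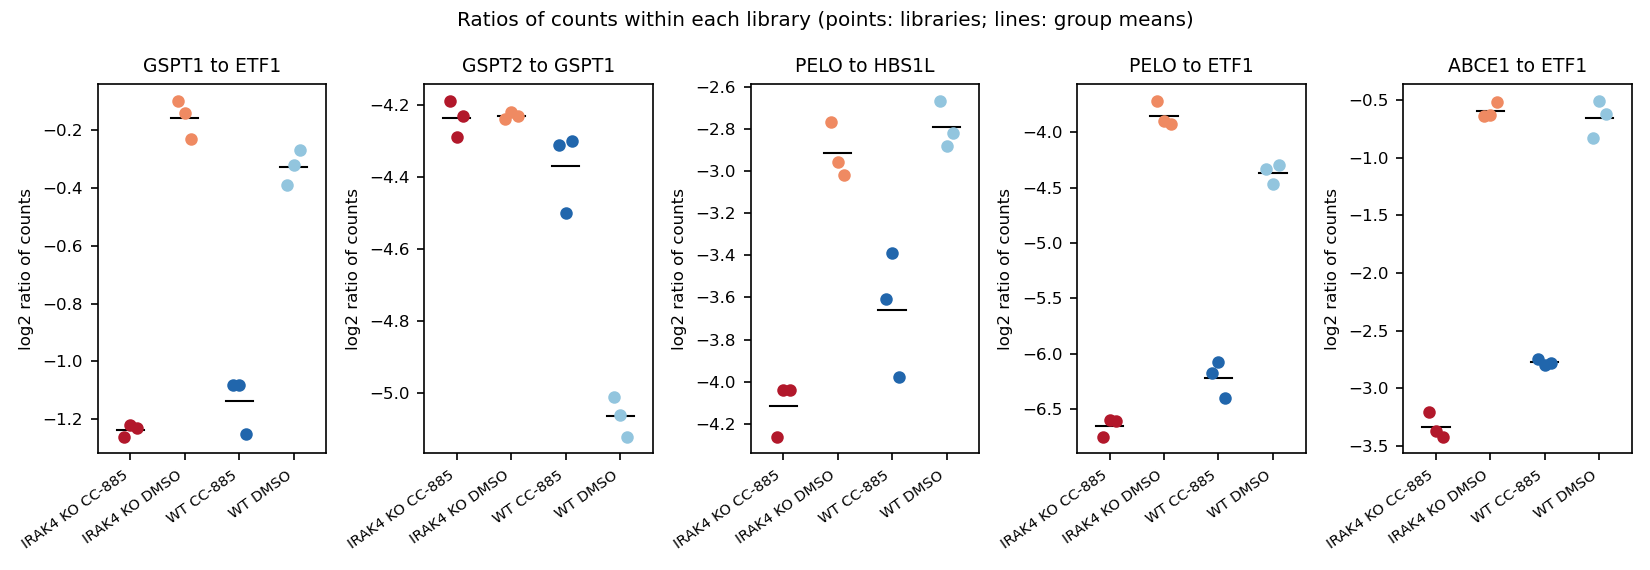
Log2 ratio of raw counts between pairs of members in each library (points) with group means (lines), for knockout with CC-885, knockout with DMSO, wild type with CC-885 and wild type with DMSO. The treated libraries lie below the DMSO libraries in every panel except GSPT2 to GSPT1, where the wild-type DMSO libraries lie below all others.

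Levels of different genes were compared per kilobase of annotated exon (GENCODE v29, CPM per kb), a length that counts all isoforms. ETF1 was the most abundant in every group, at 153 in knockout with CC-885, 43.8 in knockout with DMSO, 121 in wild type with CC-885 and 60.9 in wild type with DMSO. In knockout with CC-885 it was followed by GSPT1 at 37.2, ABCE1 at 11.2 ± 0.932, HBS1L at 10.9 ± 0.393, GSPT2 at 5.63 and PELO at 1.60, and ABCE1 and HBS1L overlapped. In knockout with DMSO GSPT1 at 22.5 ± 1.25 and ABCE1 at 21.2 ± 2.41 overlapped, ahead of HBS1L at 9.51, and GSPT2 at 3.42 and PELO at 3.20 touched in range. In wild type with CC-885 the order was GSPT1 at 31.6, ABCE1 at 13.0, HBS1L at 8.57, GSPT2 at 4.39 and PELO at 1.72 and no neighbours overlapped. In wild type with DMSO ABCE1 at 28.6 ± 3.52 and GSPT1 at 27.9 ± 1.08 overlapped, followed by HBS1L at 8.45, PELO at 3.11 and GSPT2 at 2.39. On this length ABCE1 was thus level with GSPT1 under DMSO in both genotypes and below it with CC-885. The exon lengths used were 6265 bases for ABCE1 and 8018 for GSPT1. The longest coding transcripts, of 3921 and 7105 bases, differ more in length, so the level reading under DMSO depends on the length chosen.

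Across the 12 libraries the members fell into opposed patterns, given here as Pearson correlations of log2 CPM with no test, since the points share 4 groups. GSPT1 and ETF1 correlated at 0.96, ETF1 and PELO at -0.97, PELO and ABCE1 at 0.91 and GSPT2 and ABCE1 at -0.94, while GSPT1 and GSPT2 correlated at 0.66. HBS1L correlated with the others at between -0.39 and 0.62. Among 10680 genes averaging at least 5 CPM, the genes most like ETF1 were ZCCHC2 (0.9982), the m6A reader YTHDF2 (0.9971) and the kinase MAP2K4 (0.9971). Those most like GSPT1 were the choline kinase CHKA (0.9880), the proteasome activator PSME3 (0.9869) and NSMF (0.9861).

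The genes most like GSPT2 were KIAA1324L (0.9917), the actin regulator EPS8 (0.9910) and the formin DAAM1 (0.9904). DAAM1 stood at 61.9 CPM in knockout with CC-885, 11.5 in knockout with DMSO, 28.1 in wild type with CC-885 and 4.90 in wild type with DMSO, the same order of groups as GSPT2. Those most like PELO were the cytokine TGFB1 (0.9962), the calcium pump ATP2A3 (0.9959) and the thyroid hormone receptor THRA (0.9947). TGFB1 stood at 39.6 CPM in knockout with CC-885, 116 in knockout with DMSO, 42.3 in wild type with CC-885 and 115 in wild type with DMSO. Those most like ABCE1 were JADE1 (0.9874), the Notch pathway factor RBPJ (0.9873) and the ornithine carrier SLC25A15 (0.9872). HBS1L had no neighbour above 0.9394 (ZNF567).

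The wider pathway was described with 8 lists of 76 genes, all of them tested, in which reads from near-identical pseudogene copies could be misassigned for such genes as EIF1, EIF5A, TRMT112 and RACK1. With CC-885, 44 rose and 17 fell in knockout, where 38.9% of all genes rose and 40.0% fell. In wild type 37 rose and 23 fell, where 35.7% of all genes rose and 36.6% fell. Without wild-type CC-885 replicate 3 and under each other alternative, those counts stayed between 37 and 46 and between 16 and 20 in knockout, and between 30 and 40 and between 20 and 26 in wild type. In the interaction 27 of the 76 were higher and 8 lower, against 17.9% and 16.8% of all genes. Across the alternatives the higher count ran from 18 to 35 and the lower count from 6 to 10. Each list is described by its counts and its median, without a test of the list, beside medians of -0.033 in knockout and -0.034 in wild type over all genes.

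Of 9 termination cofactors and eRF1 modifiers, 5 rose and 3 fell in knockout (median 0.25), and 4 rose and 3 fell in wild type (median -0.03, with 2 higher and 4 lower under upper-quartile factors). TRMT112, the partner of the methyltransferase that modifies eRF1, fell by 1.68 ± 0.10 in knockout (edgeR adjusted p = 9.8e-11) and by 1.07 ± 0.09 in wild type (adjusted p = 3.6e-08). The helicase DDX19B rose by 1.18 ± 0.06 in knockout and 0.73 ± 0.06 in wild type, and the poly(A)-binding protein PABPC4 by 0.66 ± 0.06 and 0.28 ± 0.06. Of the 4 genes of eIF5A and its hypusine enzymes, 3 rose and 1 fell in knockout, and 2 rose and 2 fell in wild type. With upper-quartile factors or library size alone 1 rose in each genotype. EIF5A, which promotes peptide bond formation and release, fell by 0.60 ± 0.06 in knockout and 0.75 ± 0.06 in wild type, while its paralogue EIF5A2 rose by 1.06 ± 0.12 and 0.67 ± 0.12.

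Of 6 genes that clear the small subunit after ABCE1 has split the ribosome, 4 rose and 0 fell in knockout (median 0.24), and 3 rose and 0 fell in wild type (median 0.16). With upper-quartile factors 2 rose in each genotype, with a median of 0.09 in both, and in wild type 2 rose with library size alone and without wild-type CC-885 replicate 3. EIF1, the start-codon selection factor, rose by 2.79 ± 0.06 in knockout (edgeR adjusted p = 1.1e-15) and 2.31 ± 0.06 in wild type (adjusted p = 1.2e-14). EIF3J, which acts with ABCE1 in recycling, rose by 1.38 ± 0.11 in knockout and 1.00 ± 0.11 in wild type. DENR (0.06 in knockout and 0.01 in wild type) and EIF1AX (0.04 and 0.02) did not pass.

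Of 19 genes that sense collided ribosomes and split them, 13 rose and 3 fell in knockout (median 0.38), and 9 rose and 5 fell in wild type (median 0.13). GTPBP2, a relative of HBS1L that acts on stalled ribosomes, rose by 1.98 ± 0.07 in knockout and 3.09 ± 0.07 in wild type, an interaction of -1.12 ± 0.10 (edgeR adjusted p = 1.4e-06), opposite in sign to those of GSPT1 and ETF1. RNF10, a ubiquitin ligase of the small subunit, rose by 2.04 ± 0.06 in knockout and 1.48 ± 0.06 in wild type. The deubiquitinase OTUD3 rose by 1.71 ± 0.10 in knockout and 0.81 ± 0.10 in wild type, and the splitting helicase ASCC3 by 1.21 ± 0.09 and 0.74 ± 0.09. RACK1, the scaffold of the small subunit (listed as GNB2L1), fell by 0.47 ± 0.08 in knockout and 0.20 ± 0.08 in wild type, and the collision sensor GCN1 (listed as GCN1L1) by 0.36 ± 0.06 and 0.48 ± 0.06.

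Of 15 genes of the SKI complex, the exosome and XRN1, which degrade the mRNA of stalled ribosomes, 5 rose and 5 fell in knockout (median 0.04), and 6 rose and 6 fell in wild type (median 0.01). Both medians turned negative under upper-quartile factors (-0.11 in knockout and -0.06 in wild type) and under library size alone (-0.06 in knockout and -0.05 in wild type). The exonuclease XRN1 rose by 1.97 ± 0.09 in knockout and 1.57 ± 0.09 in wild type. The exosome subunits were split, with EXOSC9 higher by 1.57 ± 0.13 in knockout and 1.03 ± 0.13 in wild type, while EXOSC5 fell by 2.22 ± 0.10 in knockout and fell by 1.25 ± 0.10 in wild type. Of 9 genes of quality control on the large subunit, 6 rose and 1 fell in knockout (median 0.54), and 6 rose and 3 fell in wild type (median 0.37). NEMF, which adds tails to stalled peptides, rose by 1.51 ± 0.08 in knockout and 0.99 ± 0.08 in wild type, and the ubiquitin ligase LTN1 by 1.12 ± 0.17 and 1.20 ± 0.17.

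Of 8 mitochondrial release and rescue factors, 4 rose and 2 fell in both genotypes, with a median of 0.28 in knockout and 0.23 in wild type. The mitochondrial release factor MTRF1L rose by 2.70 ± 0.08 in knockout (edgeR adjusted p = 5.9e-14) and 1.73 ± 0.08 in wild type (adjusted p = 1.3e-11), and the recycling factor MRRF by 1.79 ± 0.07 and 1.08 ± 0.07. MTRFR, a mitochondrial rescue factor listed as C12orf65, fell by 1.60 ± 0.08 in knockout and 1.15 ± 0.08 in wild type. Of 6 genes that insert selenocysteine at the stop codon UGA, 4 rose and 2 fell in knockout (median 0.91), and 3 rose and 2 fell in wild type (median 0.60). SECISBP2, which binds the insertion element, rose by 1.57 ± 0.07 in knockout and 1.14 ± 0.07 in wild type, while the selenophosphate synthetase SEPHS2 fell by 1.44 ± 0.06 in knockout and 0.80 ± 0.06 in wild type.

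**Figure D4:**
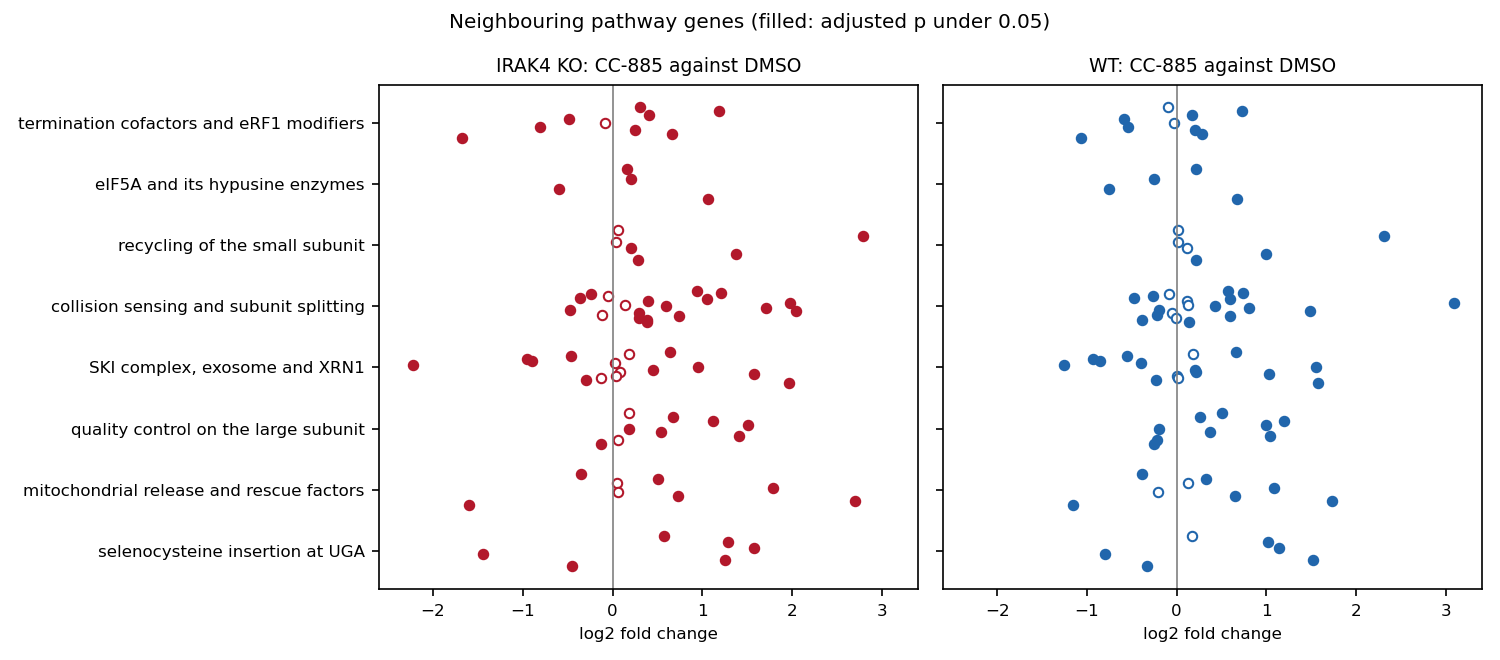
Log2 fold change of CC-885 over DMSO of every gene in the 8 pathway lists (points, edgeR, filled where the adjusted p is under 0.05), in knockout on the left and in wild type on the right. The farthest gene to the right is EIF1 in knockout (2.79) and GTPBP2 in wild type (3.09), EXOSC5 lies farthest to the left in both (-2.22 in knockout and -1.25 in wild type), and all lists but that of small-subunit recycling hold genes below 0 in both genotypes.

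Between genotypes under CC-885, 27 of the 76 pathway genes were higher and 23 lower in knockout, where 27.8% of all genes were higher and 30.8% lower. Under DMSO 4 were higher and 37 lower, where 21.3% of all genes were higher and 28.4% lower, a split that depended on scaling, with 15 higher and 23 lower under upper-quartile factors, which shifted the median of all genes by 0.12 in that comparison.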

How the data were processed

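PolyA RNA of 12 THP-1 libraries was measured by paired-end sequencing with a TruSeq kit, per the labels. The authors deposited raw counts per gene symbol. The submitters' processing notes name featureCounts 1.5.2, HISAT2 2.0.5 and FastQC 0.11.2 and the build GRCh38. The labels' extraction protocol names the mouse genome instead, but the symbols are human. How strand and reads with several matches were handled is not given in the sources used here.

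From 30017 symbols, filterByExpr kept 16010, holding 99.98% of counts. Counts were scaled by TMM and fitted with edgeR 4.0.16 (R 4.3.3, robust quasi-likelihood, 1 coefficient per group, no covariate). The common biological coefficient of variation came to 0.0899. Standard errors include the spread between libraries, and the precision of levels is limited by 3 libraries a group. DESeq2 1.42.0 and other scalings, filters, blocks and subsets were alternatives. Replicate numbers gave no clear pairing of the libraries. The pipeline was tested on simulated data. Ratios used exact permutation tests, and CPM used a prior count of 2 for correlations.

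The text names the 6 members, IRAK4 and genes from the 3 most like each member. Examples from the lists were taken from a wider set that the rule allows, not all of which is named: of each list in each response, the 2 highest and 2 lowest log2 fold changes among genes reaching 5 CPM, plus genes with a called interaction. Members and lists were chosen with earlier results of these data known. Annotation is GENCODE v29 on GRCh38, and start windows are RefSeq's (GRCh38.p14). One marker list is not reported here.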

Additional observations from a re-analysis of the deposited data

Results flagged for a closer look

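The CC-885 response differed between genotypes for 2 of the 6 members by the test of the difference itself, the interaction term of edgeR's quasi-likelihood model. For GSPT1 the response was 0.72 ± 0.05 in knockout and 0.18 ± 0.05 in wild type, an interaction of 0.54 ± 0.08 (adjusted p = 7.6e-05). For ETF1 it was 1.80 ± 0.06 in knockout and 1.00 ± 0.06 in wild type, an interaction of 0.81 ± 0.09 (adjusted p = 8.4e-06). The knockout libraries also held lower levels of both genes under DMSO, and 34.7% of all genes had a called interaction.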

How the results depend on the processing

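No called log2 fold change of a member and no ratio changed sign under any alternative run. The 30 log2 fold changes of members were recomputed 684 times and stayed on the same side of the threshold in 657. Of those, 6 changed sign, called neither before nor after: HBS1L in the wild-type response was 0.02 and became -0.05 with upper-quartile factors, -0.04 with library size alone, -0.03 with prefix 51 alone, -0.10 without wild-type CC-885 replicate 3 and -0.02 without wild-type DMSO replicate 1, and PELO between genotypes under DMSO was 0.04 and became -0.01 with prefix 51 alone. All 228 recomputed gene counts stayed within 1.5 times. The number of members lower in knockout under CC-885 was 0, and 1 (ABCE1) with no filter on low counts, in the libraries of prefix 51 alone and with only the 2 groups compared, or 0 to 1 on leaving out single libraries. The number higher in knockout under DMSO was 1, and 2 (with HBS1L) with upper-quartile factors, library size alone, no filter, the prefix as a covariate and only the 2 groups, or 1 to 2 on leaving out single libraries. The cause was not tested. Upper-quartile factors shifted the median of all genes by -0.15 in the knockout response and moved the share of calls that are higher to 60.7% in knockout against wild type under DMSO (42.9% with TMM) and to 39.7% in the interaction (51.6% with TMM).

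Title numbers gave no clear pairing of the libraries. Over 18 same-numbered pairs the correlation of deviations ran from -0.03 to 0.23, with 2 over 0.1. Those 2 set knockout DMSO libraries against wild-type CC-885 libraries of the same prefix. Of 12 libraries, 6 correlated best, among libraries of other groups, with one of their own title number. With the replicate block, HBS1L in knockout passed (0.20, adjusted p = 0.0302) and 4 members rather than 3 were higher there. Permuting ratios within the replicate block has 64 arrangements and gave adjusted p = 0.0521 for each treatment difference called before, with values of -0.95 (GSPT1 to ETF1), -1.03 (PELO to HBS1L), -2.33 (PELO to ETF1) and -2.43 (ABCE1 to ETF1), and for the genotype differences of 0.48 (GSPT2 to GSPT1) and -0.29 (PELO to HBS1L). The libraries of prefix 51 alone, with a lone wild-type DMSO library, have 30 arrangements and gave 0.0556 for the same 6, at -0.90, -1.04, -2.32, -2.32, 0.47 and -0.40. The values moved little, except PELO to HBS1L between genotypes, which went from -0.29 to -0.40 with prefix 51 alone. Fewer arrangements raise the smallest p by construction. On leaving out single libraries, GSPT2 to GSPT1 between treatments ran from 0.33 to 0.38 and passed without knockout CC-885 replicate 2 (adjusted p = 0.0167), PELO to HBS1L between genotypes ran from -0.37 to -0.22, and ABCE1 to ETF1 between genotypes ran from -0.29 to -0.22 and passed without wild-type DMSO replicate 1 (adjusted p = 0.0417). Counts over the pathway lists were recomputed after the data had been seen. Under DMSO the number of these genes higher in knockout was 4 and rose to 15 with upper-quartile factors, 8 with library size alone or no filter, and 9 with only the 2 groups.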
